A study of Homo sapiens and Mus musculus with 18 samples.

Results

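Integrins and laminins are the 2 sides of the attachment between a cell and its basement membrane, and the genes for their subunits were followed here from pluripotent stem cells to gastruloids in human and mouse. Members were chosen by name alone. A protein-coding gene entered when its symbol was that of an integrin α chain (ITGA), an integrin β chain (ITGB) or a laminin α, β or γ chain (LAMA, LAMB, LAMC). This gave 38 of the 44910 human genes of the count file, with 18 ITGA, 8 ITGB, 5 LAMA, 4 LAMB and 3 LAMC genes. The mouse file of 29720 genes gave 35, with 17 Itga, 7 Itgb, 5 Lama, 3 Lamb and 3 Lamc genes. Together they make 73 members.

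An integrin is a dimer of one α and one β chain in the cell membrane, and the pairing sets what it binds. ITGB1 pairs with many α chains. Its partners ITGA3, ITGA6 and ITGA7 give receptors for laminin, ITGA5 a receptor for fibronectin, ITGA8 and ITGA9 receptors for nephronectin, tenascin and related proteins, and ITGA1, ITGA2, ITGA10 and ITGA11 receptors for collagens. ITGAV pairs with ITGB1, ITGB3, ITGB5, ITGB6 or ITGB8 and binds vitronectin and other ligands, while ITGB4 pairs with ITGA6 in hemidesmosomes. ITGB2, with ITGAL, ITGAM, ITGAX or ITGAD, is best known from leukocytes, and ITGA2B with ITGB3 from platelets. A laminin is a trimer of one α, one β and one γ chain that polymerises outside the cell. The trimer of α1, β1 and γ1 is the first laminin of the early embryo, the trimer of α5, β1 and γ1 is made by the epiblast and used to culture human pluripotent cells, and the α3 and β3 chains belong to the laminin that anchors skin.

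Poly(A) RNA of 18 samples was sequenced, with 2 biological replicates in each of 9 groups. The human groups were naïve H9 embryonic stem cells (ESCs), reset chemically and weaned from mouse feeder cells onto Geltrex, primed H9 ESCs in StemFlex on Geltrex, primed RUES2-GLR ESCs (a reporter line) in StemFlex on Geltrex, and RA-gastruloids at an early stage of 24 h and a late stage of 120 h. Naïve H9 cells were kept in PXGL medium, which holds LIF and inhibitors of MEK, tankyrase and protein kinase C. RA-gastruloids are aggregates of RUES2-GLR cells, pretreated on vitronectin with CHIR (a WNT pathway activator) and retinoic acid, aggregated with CHIR, and given retinoic acid and Matrigel, a laminin-rich basement membrane extract, between the early and the late stage. The mouse groups all came from E14 cells and were naïve ESCs in 2i and LIF on laminin, epiblast-like cells (EpiLCs) in activin A and bFGF on fibronectin, and early (day 3) and late (day 6) gastruloids, which were seeded from naïve ESCs and received a CHIR pulse and, per the methods, no Matrigel. Each human line stands for itself only, gastruloids were pooled for a sample, and replicates of a stage were collected in 1 batch, so stage, medium, substrate and batch cannot be told apart.

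The files hold raw read counts, with 3681739 to 38771193 assigned reads a human library and 6487157 to 20052505 a mouse library. The shallowest was primed RUES2-GLR replicate 2. Levels are given as RPKM (reads per kilobase of gene length and per 1000000 reads, after TMM scaling), always as replicate 1 and then replicate 2. RPKM allows for depth and gene length, but an order between genes depends on which length is used, as the shares of ITGB5, LAMB2 and LAMA5 given below show. Changes are log2 fold changes ± SE from edgeR's quasi-likelihood test, fitted over all genes of a species, with Benjamini-Hochberg adjusted p. A member is said to rise or fall only where the adjusted p was below 0.05 and the log2 fold change was beyond 1 in size. In bulk RNA, more cells that express a gene and more RNA per cell cannot be told apart. The pluripotent marker list was at 207 to 1295 RPKM in the human libraries, highest in primed RUES2-GLR and lowest in late RA-gastruloids, and at 217 to 1547 RPKM in mouse, highest in naïve ESCs and lowest in late gastruloids.

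Of the 38 human members, 32 passed the filter on low counts and were tested. ITGA10, ITGA11, ITGAD, ITGB6, ITGB7 and LAMB4 did not pass and held 16 reads or fewer in every library. Of the 35 mouse members 33 were tested, all but Itgad and Lamc3. A further group was tested at low level, since 14 human and 12 mouse members, the untested ones included, stayed below 1 RPKM in every group.

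Few chains carried most of the RNA of each class. LAMC1, the γ chain of most laminins, held 76.7% to 99.5% of the summed γ chain RPKM in the 5 human groups and 98.1% to 98.3% in the 4 mouse groups. The α chains of laminin came mainly from LAMA5 and LAMA1. LAMA5 held 64.9% of the class in naïve H9, 50.0% in primed H9, 59.1% in primed RUES2-GLR, 49.6% in early and 34.7% in late RA-gastruloids, and LAMA1 nearly all the remainder. In mouse, Lama5 held 57.0% in naïve ESCs, 90.3% in EpiLCs, 86.5% in early and 43.0% in late gastruloids. Among laminin β chains, Lamb1 was at 78.5% to 90.8% in mouse EpiLCs and gastruloids, Lamb2 at 79.6% in mouse naïve ESCs, and LAMB2 at 59.9% to 71.5% in both primed human lines and late RA-gastruloids.

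Among integrins, ITGA6 was the highest α chain in the 3 human ESC groups, ITGA5 in both RA-gastruloid stages, Itga6 in mouse naïve ESCs and early gastruloids, Itga3 in EpiLCs and Itga9 in late gastruloids. ITGB1 held 72.2% to 79.9% of β chain RPKM in every mouse group. In human, ITGB5 had 86.6% of it in naïve H9, 77.1% in primed H9, 51.2% in primed RUES2-GLR, 58.6% in early and 28.2% in late RA-gastruloids. Shares depend on the length by which counts are divided, because the counted exons of some genes add up to far more than one transcript. With the longest transcript as the length, the ITGB5 share was 82.1%, 66.6%, 38.1%, 45.7% and 18.5% in these 5 human groups, so ITGB5 was no longer the leading β chain in primed RUES2-GLR or early RA-gastruloids. LAMB2 likewise went from 59.9% to 39.6% in primed RUES2-GLR and from 66.9% to 47.0% in late RA-gastruloids. With this length LAMA1 also led LAMA5, at 51.6% against 44.7% in primed H9 and 54.1% against 44.4% in early RA-gastruloids.

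**Figure D1:**
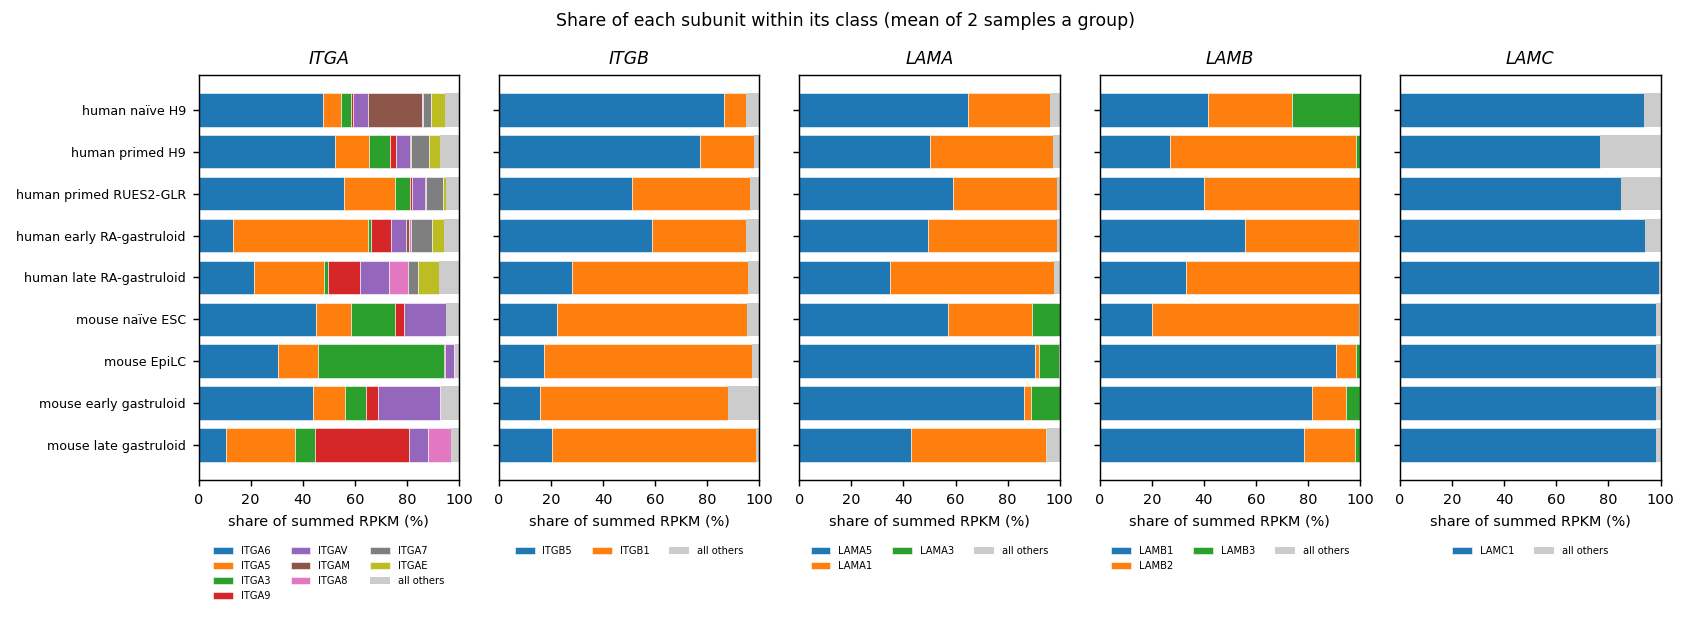
Horizontal stacked bars give each subunit's share (%) of the summed RPKM of its class, as the mean of 2 samples, for the 5 human and 4 mouse groups; the remaining subunits are pooled in grey. LAMC1 fills 76.7% or more of its class in every group, while ITGB5 narrows from 86.6% in naïve H9 to 28.2% in late RA-gastruloids.

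The promoters of 5 human chains that carried these levels are printed as the regulatory sequence that goes with the changes described below. They are ITGA5, LAMA5, LAMB1, LAMB2 and LAMC1, each with a single window in the RefSeq table (GRCh38.p14). Windows span 250 bases before the transcription start and 50 after it, read 5′ to 3′ along the gene. Capitals mark the GC box (GGGCGG on either strand, the letters bound by SP1-type factors), and overlapping matches are counted separately.
ITGA5, chr12:54419217-54419516 on the minus strand: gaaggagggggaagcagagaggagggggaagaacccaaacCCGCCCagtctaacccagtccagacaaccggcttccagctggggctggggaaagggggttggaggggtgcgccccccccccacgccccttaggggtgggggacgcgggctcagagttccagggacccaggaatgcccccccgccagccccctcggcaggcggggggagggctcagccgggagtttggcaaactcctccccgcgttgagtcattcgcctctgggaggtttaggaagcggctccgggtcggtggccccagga
LAMA5, chr20:62367263-62367562 on the minus strand: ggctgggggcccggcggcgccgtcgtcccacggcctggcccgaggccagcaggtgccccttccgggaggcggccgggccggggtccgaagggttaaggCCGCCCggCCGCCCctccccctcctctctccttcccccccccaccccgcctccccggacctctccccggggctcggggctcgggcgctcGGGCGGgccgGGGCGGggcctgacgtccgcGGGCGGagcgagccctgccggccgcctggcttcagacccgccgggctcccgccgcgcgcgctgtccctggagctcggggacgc
LAMB1, chr7:108003112-108003411 on the minus strand: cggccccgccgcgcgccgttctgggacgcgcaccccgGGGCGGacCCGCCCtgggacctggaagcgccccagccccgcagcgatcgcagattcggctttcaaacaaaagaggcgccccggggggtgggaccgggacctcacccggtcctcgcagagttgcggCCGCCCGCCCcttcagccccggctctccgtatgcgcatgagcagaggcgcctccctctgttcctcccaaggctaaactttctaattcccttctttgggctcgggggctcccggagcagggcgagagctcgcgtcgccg
LAMB2, chr3:49133001-49133300 on the minus strand: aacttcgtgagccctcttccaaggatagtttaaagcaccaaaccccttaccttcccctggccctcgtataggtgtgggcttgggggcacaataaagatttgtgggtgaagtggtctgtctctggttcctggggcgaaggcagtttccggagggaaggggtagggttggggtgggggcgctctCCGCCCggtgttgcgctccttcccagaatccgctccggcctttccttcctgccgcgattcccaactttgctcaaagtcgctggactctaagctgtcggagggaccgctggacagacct
LAMC1, chr1:183023170-183023469 on the plus strand: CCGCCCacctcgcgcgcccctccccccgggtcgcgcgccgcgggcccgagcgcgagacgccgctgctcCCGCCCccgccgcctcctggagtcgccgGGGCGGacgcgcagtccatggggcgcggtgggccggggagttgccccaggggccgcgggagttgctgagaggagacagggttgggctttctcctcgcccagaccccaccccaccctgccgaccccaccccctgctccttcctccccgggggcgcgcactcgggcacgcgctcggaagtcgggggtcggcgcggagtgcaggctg
The GC box occurred 5 times in the LAMA5 window, 4 times in that of LAMB1, 3 times in that of LAMC1 and once each in those of ITGA5 and LAMB2. Their GC content was 82.7%, 71.0%, 79.0%, 69.3% and 58.7% in the same order, against a median of 58.7% over all 35116 windows of the table. The 26 human members with an entry had 33 windows, and the GC box was in 19 of these, against 45.0% of all windows. CCAAT was in 6 of the 33 (34.6% of all windows), TATAAA in 2 (11.5%), the nuclear receptor half-site AGGTCA in 2 (13.8%), those of ITGAV and LAMA2, and the LEF/TCF core CTTTGAT in 0 (2.62%), each on both strands.

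Some members are neighbours in the genome. On human chromosome 7 of GRCh38, LAMB1 (chr7:107923799-108003213) is followed by LAMB4 (chr7:108023548-108130361). ITGA1 (chr5:52787916-52959209) lies beside ITGA2 (chr5:52989340-53094779), and ITGAM (chr16:31259967-31332892) beside ITGAX (chr16:31355134-31382999). LAMB4 was not detected above 4 reads in any library, beside the levels of LAMB1 given below.

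The first human comparison was of naïve and primed cells of the same H9 line, which were also kept in different media. Primed H9 ESCs had more RNA of most integrin α chains, while the share of laminin chains that fell was near that of all genes. Of the 38 members, 13 rose and 7 fell, against 25.5% of all 18300 tested genes called higher and 22.3% called lower. Of the 18 α integrins 10 rose and 2 fell, with a median log2 change of 1.47 over the 15 tested. Of the 12 laminin chains 1 rose and 3 fell, with a median of −0.81 over the 11 tested. The median over all tested genes was 0.00 (0.10 lower under DESeq2's size factors).

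All 3 laminin receptor chains that pair with ITGB1 rose. ITGA6 was at 11.4 and 9.93 RPKM in naïve H9 and 29.6 and 29.8 in primed H9, a log2 change of 1.47 ± 0.11 (adjusted p = 2.2e-13). ITGA3 went from 0.805 and 0.813 RPKM to 4.40 and 4.45, a log2 change of 2.45 ± 0.14 (adjusted p = 4.4e-16). For ITGA7 the levels were 0.714 and 0.708 RPKM in naïve and 3.72 and 4.13 in primed cells, a log2 change of 2.47 ± 0.15 (adjusted p = 1.8e-15). In all 3 the primed samples lay above both naïve samples, with replicates close together. The fibronectin receptor chain ITGA5 rose from 1.65 and 1.44 to 7.30 and 7.45 RPKM (log2 change 2.25 ± 0.13), ITGAV from 1.52 and 1.16 to 3.10 and 3.24 RPKM (1.24 ± 0.13), and their partner ITGB1 from 8.49 and 7.06 to 18.1 and 18.5 RPKM (1.24 ± 0.11). The collagen receptor chains ITGA1 and ITGA2 also rose, to 0.630 and 1.53 RPKM on average. Of the remaining called members, ITGA2B, ITGA9 and ITGB8 rose and ITGAL, ITGB3 and LAMA4 fell, all at a mean of 1.40 RPKM or less in the higher state. ITGA4 rose from 2 reads in 1 naïve library and 0 in the other to 0.472 and 0.543 RPKM. About 26.4% of the ITGA4 exons overlap CERKL on the opposite strand, and the counting did not use strand.

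ITGB5, the vitronectin receptor chain, was the highest integrin RNA of the 2 H9 states, at 79.7 and 80.8 RPKM in naïve and 67.2 and 68.0 RPKM in primed cells. That difference of −0.25 ± 0.10 (adjusted p = 0.028) was below the fold threshold.

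LAMB3, ITGB4 and ITGAM were highest in naïve H9 among the human groups. LAMB3, the β chain of the skin laminin, was at 6.59 and 6.09 RPKM in naïve H9 and at 0.286 and 0.323 RPKM in primed H9, a log2 change of −4.34 ± 0.22 (adjusted p = 1.0e-17). ITGB4 was at 4.19 and 4.47 RPKM in naïve cells and at 1.28 and 1.33 in primed cells (−1.72 ± 0.15). ITGAM, the leukocyte α chain, was at 4.60 and 4.66 RPKM in naïve H9 and at 0.0737 and 0.0838 RPKM in primed H9, a log2 change of −5.81 ± 0.27 (adjusted p = 1.2e-18). Its usual partner ITGB2 stayed at 0.150 and 0.0707 RPKM in the naïve libraries. LAMA3, the α chain found with LAMB3 in skin, was at 0.325 and 0.218 RPKM in naïve H9 and was not called.

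LAMC1 fell from 88.8 and 77.5 RPKM to 31.5 and 31.9 (−1.39 ± 0.10, adjusted p = 8.9e-14), and remained the leading γ chain. LAMC3 went the other way, from 1.81 and 1.72 to 7.14 and 7.91 RPKM (2.10 ± 0.12). LAMA5 was at 17.4 and 20.4 RPKM in naïve and 9.39 and 10.9 in primed H9, and LAMB1 at 10.8 and 9.34 against 5.67 and 5.87. Both were lower without passing the fold threshold (−0.90 ± 0.14 and −0.80 ± 0.10). LAMA1 was at 8.23 to 10.1 RPKM in these 4 libraries, with a difference of 0.06 ± 0.11. The trophectoderm marker list summed to 258 and 308 RPKM in naïve H9 and to 73.7 and 73.3 in primed H9, with 7 of its 8 genes at 1 RPKM or more in naïve cells and 3 in primed cells. The endoderm list (extraembryonic and definitive) summed to 16.6 and 21.0 RPKM in naïve H9 and to 1.94 and 1.78 in primed H9. The fibroblast list summed to 82.2 and 79.7 RPKM in naïve and 83.4 and 86.4 in primed H9, with 0 of its 8 genes at or under 3 reads in naïve and 3 in primed libraries. Of the blood cell list, 6 of 8 genes, among them PTPRC, were at or under 3 reads in naïve H9. The part of these cell types in the result was not tested.

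Among 39 other adhesion genes (basement membrane and matrix proteins, and the proteins that tie integrins to actin), 14 rose and 5 fell in primed H9. Of all tested genes, 25.5% were called higher and 22.3% lower. COL4A5, a chain of basement membrane collagen, was at 0.198 and 0.116 RPKM in naïve and 3.25 and 3.38 in primed H9. COL18A1, a basement membrane collagen that carries the endostatin fragment, was at 3.56 and 4.07 RPKM against 46.5 and 53.3. The tensin TNS3 fell from 26.7 and 23.1 to 3.29 and 3.25 RPKM, and the tetraspanin CD151, which associates with laminin receptors, from 48.9 and 57.3 to 17.7 and 18.8 RPKM.

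The 2 primed human lines were compared to see how far these genes differ between lines kept in the same medium and on the same substrate. Line and batch of collection cannot be told apart. RUES2-GLR had more of 12 members and less of 1, where 17.1% of all tested genes were called higher and 12.2% lower, and 3 of the 12 were laminin chains. With DESeq2's size factors in place of TMM, 15 were higher and 1 lower. The median log2 difference was 0.90 over the 32 members and −0.12 over all genes (0.00 under those size factors).

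ITGA6 reached 78.5 and 70.6 RPKM in RUES2-GLR, a log2 difference of 1.33 ± 0.11 from primed H9 (adjusted p = 5.1e-12). ITGA5 was at 24.3 and 27.8 RPKM (1.81 ± 0.11, adjusted p = 2.1e-14), ITGA7 at 8.70 and 9.54 RPKM (1.20 ± 0.13) and ITGAV at 7.17 and 6.11 RPKM (1.08 ± 0.13). Each of these 4 chains was thus higher in RUES2-GLR than in primed H9 by a factor of 2.11 to 3.51, with no overlap between the lines. Of the chains of the α5, β1 and γ1 laminin, LAMB1 was at 18.8 and 18.4 RPKM (1.69 ± 0.11, adjusted p = 1.9e-14) and LAMA5 at 21.8 and 22.9 RPKM (1.14 ± 0.14, adjusted p = 3.5e-08). LAMC1 stood at 63.5 and 63.2 RPKM against 31.5 and 31.9 in primed H9, a log2 difference of 1.00 ± 0.10 that lay just under the threshold. Without primed H9 replicate 1 the LAMA5 difference also came to 1.00 and was not called. The collagen receptor chain ITGA2 was also higher, at 3.30 and 3.19 RPKM against a mean of 1.53 in primed H9. ITGA8, ITGAM, ITGAX and ITGB8 were higher and LAMA3 lower, all at a mean of 0.898 RPKM or less. The ITGA8 call rests on 4 and 1 reads in RUES2-GLR against 0 in both primed H9 libraries. ITGB1 (0.93 ± 0.10) and LAMB2 (0.87 ± 0.12) were higher and ITGB5 (−0.78 ± 0.10) lower in RUES2-GLR, all within the fold threshold.

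Of the 39 adhesion genes 11 were higher and 9 lower in RUES2-GLR (17.1% and 12.2% of all tested genes). Matrix genes stood among the higher ones, such as TNC (tenascin-C) at 6.95 and 7.94 RPKM against 0.969 and 1.13 in primed H9, and NID2 (nidogen-2, a laminin-binding basement membrane protein) at 8.15 and 9.43 RPKM against 1.55 and 1.77. The neural progenitor marker list, which shares SOX2 with the pluripotent list, summed to 201 and 219 RPKM in primed H9 and 579 and 569 in RUES2-GLR. Of its 8 genes, 4 and 4 were at 1 RPKM or more in primed H9, but 2 and 3 in RUES2-GLR. The larger sum in RUES2-GLR thus came from few genes, and the part of neural cells in the difference was not tested. Lower in RUES2-GLR were the talin TLN2, at 1.17 and 1.26 RPKM against 4.87 and 4.43, and the focal adhesion scaffold BCAR1, at 6.40 and 8.52 RPKM against 23.8 and 26.1. Talins couple integrins to actin.

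The step from primed RUES2-GLR cells to early RA-gastruloids, which were made from the same line, brought lower RNA of the laminin receptor chains. A total of 10 members fell and 4 rose (12.0% of all tested genes were called higher and 17.6% lower). The median log2 change was −0.37 over the 32 members tested and 0.08 over all genes. Of the 12 laminin chains 4 fell, and the other 7 that were tested did not pass.

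ITGA6 fell from 78.5 and 70.6 RPKM to 6.75 and 7.12, a log2 change of −3.43 ± 0.12 (adjusted p = 6.0e-21). ITGA3 fell from 6.83 and 8.45 RPKM to 0.627 and 0.700 (−3.50 ± 0.16, adjusted p = 6.5e-18), and ITGA7 from 8.70 and 9.54 to 4.39 and 4.23 (−1.07 ± 0.14, adjusted p = 6.1e-08). All 3 laminin-binding α chains that pair with ITGB1 were thus lower in both early samples than in either primed sample. ITGB4, the hemidesmosome partner of ITGA6, fell from 1.61 and 1.51 to 0.185 and 0.179 RPKM. The collagen receptor chain ITGA2 fell from 3.30 and 3.19 to 0.134 and 0.115 RPKM (−4.70 ± 0.26), and ITGAV from 7.17 and 6.11 to 2.93 and 3.04 (−1.17 ± 0.13).

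ITGA5, ITGB5 and ITGB1 were not called. ITGA5 was at 26.3 and 27.3 RPKM in early RA-gastruloids, a difference of 0.05 ± 0.11 (adjusted p = 0.73), and its share of α chain RPKM was 51.6% against 19.6% in primed RUES2-GLR. ITGB5, at 41.6 and 41.0 RPKM, differed by 0.07 ± 0.10, and ITGB1, at 25.2 and 26.0 RPKM, by −0.45 ± 0.10. ITGA9, a chain that binds tenascin and fibronectin variants, rose from 0.792 and 0.886 to 3.86 and 4.05 RPKM (2.27 ± 0.17, adjusted p = 1.2e-12). ITGA8 rose from 0.0447 and 0.0435 RPKM, which were 4 and 1 reads, to 0.354 and 0.400 RPKM, and ITGB2 from 0.123 and 0.131 to 1.95 and 1.65 RPKM. ITGB2's usual partners ITGAM and ITGAX were at 0.408 to 0.878 RPKM in early RA-gastruloids, and 4 and 6 of the 8 blood cell markers were at or under 3 reads there. ITGAM passed the test (1.33 ± 0.39) although replicate 2 of the early group, at 0.408 RPKM, lay below replicate 2 of RUES2-GLR, at 0.448.

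Among laminins LAMB2 fell from 27.4 and 28.4 to 11.2 and 11.3 RPKM (−1.31 ± 0.12, adjusted p = 1.6e-10) and LAMC3 from 6.71 and 7.13 to 2.49 and 2.54 (−1.45 ± 0.13). LAMA1, at 15.2 and 14.9 RPKM in early RA-gastruloids, differed by 0.01 ± 0.11 from the primed level. LAMA5 (−0.56 ± 0.14), LAMB1 (−0.37 ± 0.10) and LAMC1 (−0.37 ± 0.10) were lower within the fold threshold. LAMA4 fell as well, from a mean of 0.264 to 0.0445 RPKM. The early gastruloid marker list summed to 448 and 457 RPKM in early RA-gastruloids and to 1.13 and 1.09 in primed RUES2-GLR. Over the same step the paraxial mesoderm list went from 6.62 and 9.19 to 126 and 133 RPKM, and the endoderm list from 3.09 and 2.72 to 31.9 and 30.9. Their genes at 1 RPKM or more rose too, from 1 and 1 of 8 to 3 and 3, and from 1 and 1 to 4 and 5. The neural crest list went from 40.0 and 36.0 to 99.1 and 99.4 RPKM and the neural progenitor list from 579 and 569 to 122 and 124. Their gene counts did not follow the sums. They went from 6 and 5 of 8 to 4 and 4 for neural crest, and from 2 and 3 to 3 and 3 for neural progenitors. The part of these cell types in the fall of the laminin receptor chains was not tested.

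In the adhesion list 6 of 39 genes rose and 4 fell (12.0% and 17.6% of all tested genes). FN1, the fibronectin bound by the ITGA5 and ITGB1 dimer, went from 6.19 and 6.09 to 46.2 and 48.8 RPKM (2.95 ± 0.12). TLN2 rose from 1.17 and 1.26 to 4.87 and 4.81 RPKM. DAG1, the gene of dystroglycan, a laminin receptor that is no integrin, fell from 62.1 and 69.0 to 9.89 and 10.2 RPKM (−2.70 ± 0.11). SPP1 (osteopontin, an integrin ligand) fell from 7.06 and 7.73 to 1.03 and 1.02 RPKM.

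From early to late RA-gastruloids, with Matrigel present, the lower calls outnumbered the higher ones. Of the 38 members 13 fell and 3 rose, where 13.2% of all tested genes were called lower and 11.8% higher, and the medians were −0.85 over the members tested and 0.00 over all genes. ITGB5 fell from 41.6 and 41.0 to 8.94 and 7.34 RPKM (−2.33 ± 0.11, adjusted p = 1.2e-17). ITGA5 fell from 26.3 and 27.3 to 9.77 and 8.53 RPKM (−1.55 ± 0.11, adjusted p = 4.8e-13), and ITGA7 from 4.39 and 4.23 to 1.58 and 1.09 RPKM (−1.65 ± 0.15). In each of them the late samples lay below both early ones.

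ITGA8, a receptor chain for nephronectin that is known from kidney and mesenchyme, rose from 0.354 and 0.400 to 2.52 and 2.26 RPKM (2.67 ± 0.23, adjusted p = 4.8e-11). ITGA2 rose again, from 0.134 and 0.115 to 1.23 and 1.54 RPKM, and LAMA4, at 0.295 and 0.289 RPKM, was the third that rose. ITGA6, at 6.61 and 7.65 RPKM, differed by 0.03 ± 0.12 from early RA-gastruloids (adjusted p = 0.85), and ITGA9, at 4.17 and 4.12 RPKM, by 0.07 on the log2 scale. ITGAM, ITGAX and ITGB2, which form leukocyte receptors, were low in late RA-gastruloids. ITGAM fell from 0.878 and 0.408 RPKM and ITGAX from 0.611 and 0.656 RPKM to 1 read in either late library. ITGB2 was at 0.372 and 0.0838 RPKM, with the late replicates further apart than the early ones relative to their mean, though not in RPKM.

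LAMA5 fell from 14.2 and 16.0 to 7.29 and 4.48 RPKM (−1.35 ± 0.14, adjusted p = 2.1e-09), the late replicates again standing apart. LAMC3 fell from 2.49 and 2.54 to 0.146 and 0.125 RPKM (−4.17 ± 0.20, adjusted p = 1.8e-17). LAMC1 stood at 31.4 and 29.7 RPKM (−0.68 ± 0.10), LAMB1 at 8.28 and 7.50 RPKM (−0.87 ± 0.10), LAMA1 at 11.0 and 9.89 RPKM (−0.52 ± 0.11) and LAMB2 at 18.9 and 13.6 RPKM (0.54 ± 0.12). None of these 4 passed the fold threshold. ITGA2B, ITGAL, LAMA2 and LAMA3 also fell from means of 1.15 RPKM or less. The neural progenitor list went from 122 and 124 RPKM to 319 and 290.2, and the early gastruloid list from 448 and 457 to 106 and 84.4. The endoderm list went from 31.9 and 30.9 to 8.73 and 9.35 RPKM. Sums of the trophectoderm list went from 116 and 115 to 17.2 and 15.6 RPKM, and of the neural crest list from 99.1 and 99.4 to 36.3 and 38.1. Neural crest genes at 1 RPKM or more went the other way, from 4 and 4 of 8 to 6 and 6. The trophectoderm list, which shares CDX2 with the early gastruloid list, had 3 and 3 of 8 at both stages. The part of these cell types in the result was not tested. In the adhesion list of 39, 2 genes rose and 4 fell (11.8% and 13.2% of all tested genes). PARVA (α-parvin, of the complex that joins integrins to actin) rose from 2.84 and 2.65 to 6.49 and 6.44 RPKM, CD151 fell from 26.6 and 27.1 to 10.6 and 6.60 RPKM, and NID2 from 11.2 and 11.4 to 4.62 and 3.97 RPKM.

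**Figure D2:**
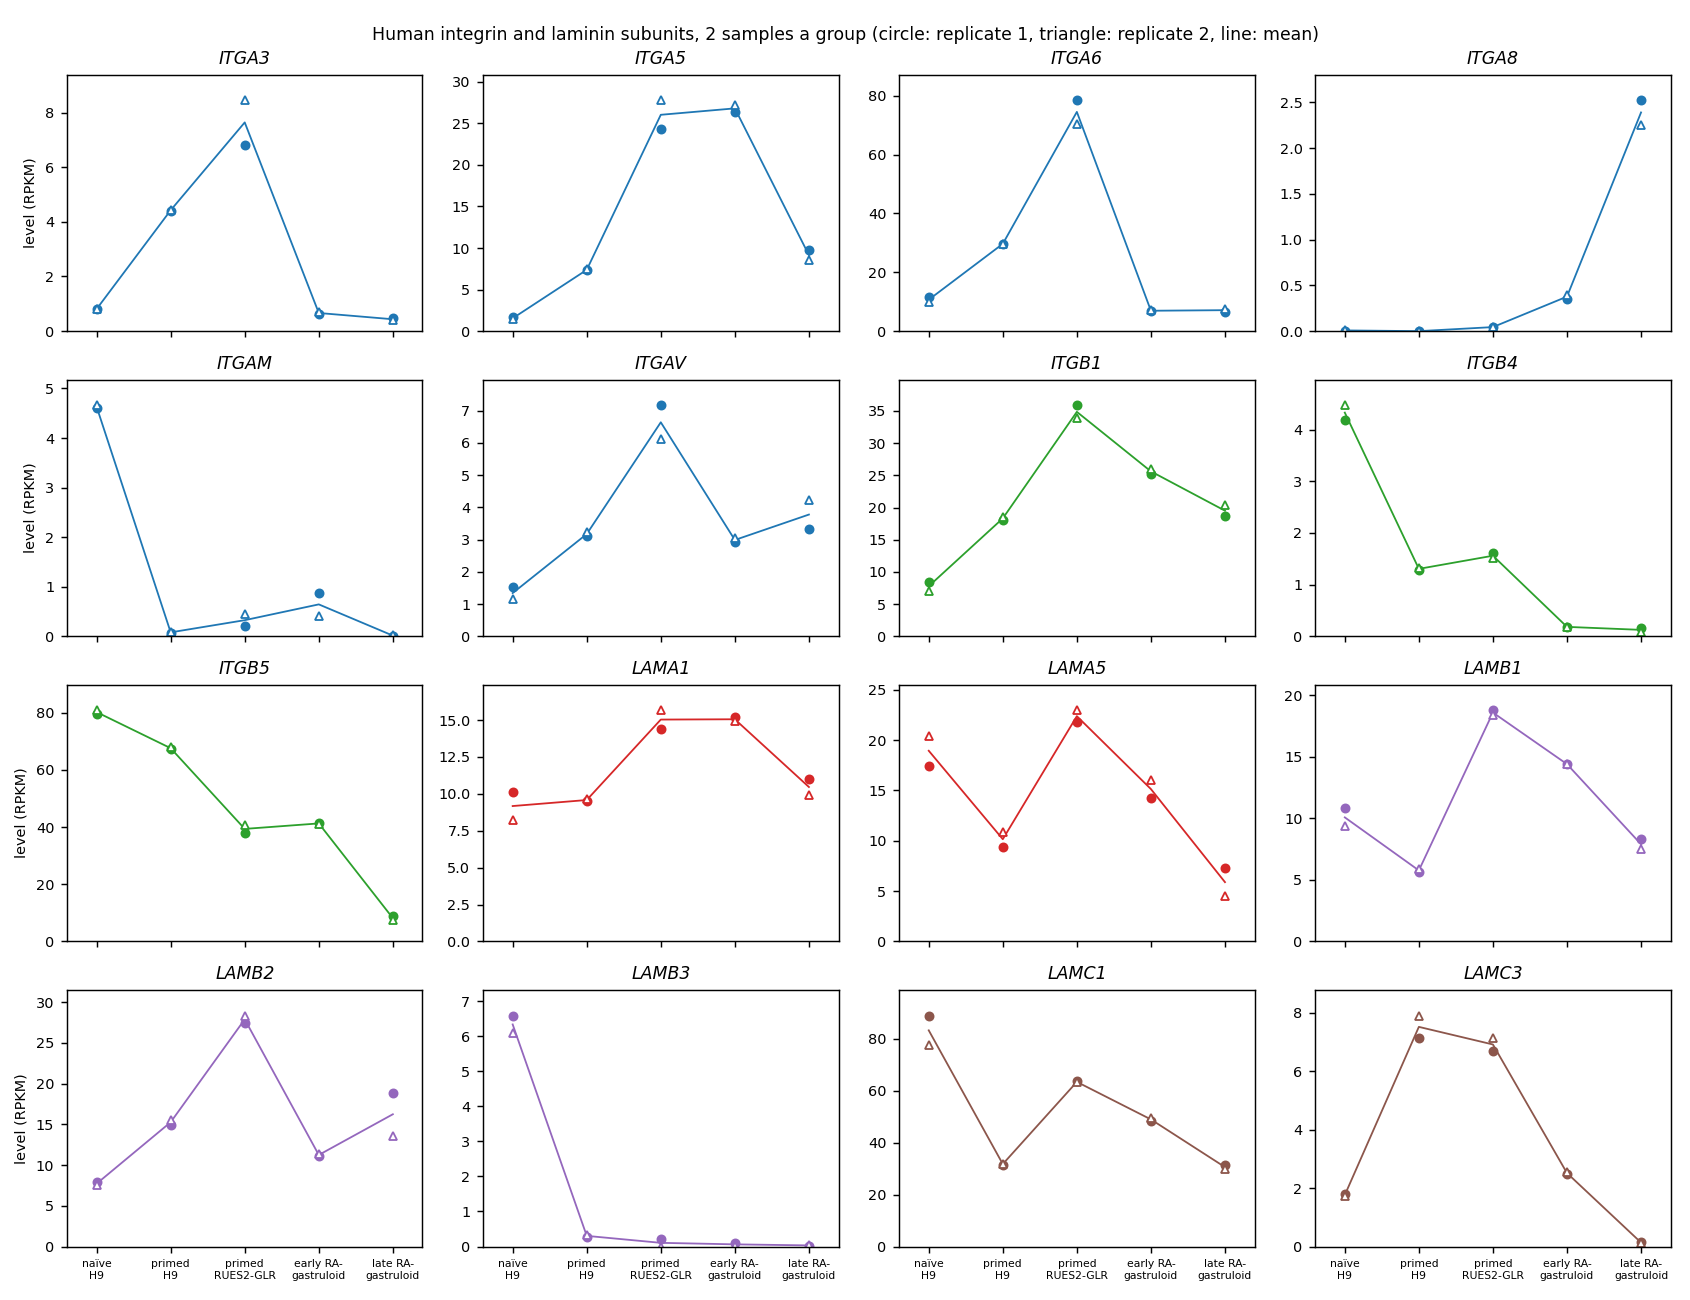
Levels (RPKM, linear axes from 0) of 16 human subunit genes are plotted for the 5 human groups, with circles and triangles for replicates 1 and 2 and a line through the means. ITGA6 peaks at 78.5 and 70.6 RPKM in primed RUES2-GLR, ITGA5 stays high into early RA-gastruloids, and ITGB5 ends at 8.94 and 7.34 RPKM in late RA-gastruloids.

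In mouse, the first comparison was of naïve ESCs with EpiLCs, the mouse cells nearest to primed cells. Laminin chains changed in both directions, and Lama1, Lamb2 and Lamc1 fell, while Lama5 and Lamb1 rose. Of the 35 members 12 rose and 9 fell, against 17.7% of the 15003 tested genes called higher and 12.1% called lower. The median log2 change was 0.06 over the 33 members and 0.02 over all genes.

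Lama1 fell from 12.3 and 12.5 RPKM in naïve ESCs to 0.703 and 0.918 in EpiLCs, a log2 change of −3.87 ± 0.10 (adjusted p = 5.7e-39). Lamb2 fell from 14.5 and 15.0 to 2.53 and 3.26 RPKM (−2.30 ± 0.10, adjusted p = 2.1e-29). Lamc1 went from 122 and 123 RPKM, the highest level of any member in any mouse group, to 37.8 and 42.5 (−1.60 ± 0.05, adjusted p = 1.5e-34). The rises were of the other α and β chains. Lama5 went from 21.8 and 21.7 to 43.3 and 50.1 RPKM (1.11 ± 0.06), a call that was lost at 1.00 without EpiLC replicate 2. Lamb1 went from 3.36 and 4.10 to 34.6 and 35.2 RPKM (3.21 ± 0.07, adjusted p = 3.8e-43). Lama3, at 3.81 to 4.38 RPKM over these 4 libraries, differed by 0.06 ± 0.09.

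Among α integrins above 2 RPKM in either state Itga3, a laminin receptor chain, rose furthest, from 8.04 and 6.43 to 47.0 and 49.9 RPKM (2.77 ± 0.08, adjusted p = 5.3e-38). Itga5 rose from 5.40 and 6.22 to 14.6 and 16.3 RPKM (1.41 ± 0.09, adjusted p = 6.1e-21). Itga6, at 19.0 and 19.8 RPKM in naïve ESCs and 30.0 and 30.8 in EpiLCs, was higher within the fold threshold (0.65 ± 0.06). Itgb1 was the main β chain of both states, at 81.7 and 77.8 RPKM in naïve ESCs and 72.6 and 75.1 in EpiLCs, and differed by −0.11 ± 0.05 (adjusted p = 0.069). Among the low chains, Itgb2, Itgb8 and Lama4 had 0 reads in both naïve libraries and 0.199, 0.105 and 0.111 RPKM on average in EpiLCs, at least 1.77-fold, 3.37-fold and 3.90-fold higher than a floor of 3 reads a library. Itgb3 fell from 1.09 and 1.11 to 0.100 and 0.112 RPKM. Further called members were low, at a mean of 1.91 RPKM or less in the higher state, with rises of Itga1, Itga2b, Itga4, Itgam and Lamb3 and falls of Itga9, Itga10, Itgal and Itgb7. Itga2b was called although replicate 1 of EpiLCs, at 0.0271 RPKM, lay below replicate 2 of naïve ESCs, at 0.0493.

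In the adhesion list 8 genes rose and 9 fell, of the 37 tested (17.7% and 12.1% of all tested genes). Nid1 (nidogen-1, which links laminin γ1 to collagen IV) went from 69.5 and 75.0 to 1.83 and 1.95 RPKM (−5.24 ± 0.08), and Spp1 from 564 and 550 to 55.3 and 54.1 RPKM. Zyx, the focal adhesion protein zyxin, rose from 0.673 and 0.666 to 14.1 and 15.0 RPKM (4.45 ± 0.13). Fermt1, a kindlin that activates integrins, rose from 0.147 and 0.142 to 2.10 and 2.19 RPKM.

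Mouse early gastruloids were seeded from naïve ESCs, and were compared both with these and with EpiLCs, so the 2 comparisons share the early samples. Against naïve ESCs 8 members were higher and 9 lower, with 16.2% of all tested genes called higher and 6.81% lower, and the medians were 0.29 over the 33 members and 0.03 over all genes. Against EpiLCs 7 were higher and 6 lower, with 11.7% of all genes higher and 9.24% lower, and the medians were 0.16 and 0.01. DESeq2 called 7 members higher and 3 lower than in EpiLCs.

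The levels of 5 laminin chains in early gastruloids lay nearer to EpiLCs than to naïve ESCs. Lama1 was at 1.16 and 1.20 RPKM, Lama5 at 41.3 and 36.9, Lamb1 at 20.1 and 20.9, Lamb2 at 3.31 and 3.38 and Lamc1 at 44.6 and 46.1. Relative to naïve ESCs, Lama1 changed by −3.39 ± 0.09, Lamb2 by −2.15 ± 0.09, Lamc1 by −1.43 ± 0.05 and Lamb1 by 2.44 ± 0.07 on the log2 scale. Relative to EpiLCs, 1 of the 10 laminin chains tested was called higher and 1 lower, both at 1.35 RPKM or less (Lamb3 and Lama4). Of all tested genes, 11.7% were called higher and 9.24% lower there.

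Of the 23 integrin chains tested, 11 were called against EpiLCs (11.7% of all tested genes were called higher and 9.24% lower). The other 12 were not, among them Itgb1, Itga6 and Itgb5. Itga3 was at 2.89 and 2.62 RPKM in early gastruloids, with a log2 difference of −4.12 ± 0.08 from EpiLCs (adjusted p = 7.0e-45) and of −1.36 ± 0.10 from naïve ESCs. Itga5, at 4.53 and 4.19 RPKM, was lower than in EpiLCs (−1.83 ± 0.09). Itgav, at 8.14 and 8.72 RPKM, was higher than in EpiLCs, at 3.69 and 3.53 RPKM (1.23 ± 0.08, adjusted p = 3.1e-20), and differed from naïve ESCs by 0.29 ± 0.07. Itgb5 was at 11.8 and 11.6 RPKM against 24.4 and 24.5 in naïve ESCs (−1.06 ± 0.07). The collagen receptor chain Itga1 was at 1.08 and 1.00 RPKM, above both naïve ESCs, at 0.0450 and 0.0482, and EpiLCs, at 0.0874 and 0.110. The further calls were of chains at a mean of 1.63 RPKM or less. Against naïve ESCs these were Itga2, Itga8, Itgam, Itgb8 and Lamb3, all higher, and Itga7, Itgal and Itgb3, all lower. Itga2 and Itgb8 had 0 reads in both naïve libraries. Against a floor of 3 reads a library Itga2 was at least 2.08-fold higher, while Itgb8, with 8 and 3 reads in early gastruloids, had a bound of 0.958, so that these reads set no rise of Itgb8 apart from the floor. Against EpiLCs the further calls were Itga2 and Itga9, both higher, and Itga7, Itgam and Itgb8, all lower.

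Itgb2 and Itgb7, β chains known from leukocytes, were highest in early gastruloids among the mouse groups. Itgb2 had 0 reads in both naïve libraries and was at 2.75 and 1.84 RPKM in early gastruloids, at least 20.4-fold higher, and at 0.0969 and 0.302 RPKM in EpiLCs (3.30 ± 0.34). Itgb7 was at 3.74 and 3.27 RPKM in early gastruloids and 0.961 and 0.879 in EpiLCs (1.96 ± 0.22). The α chains that pair with them were low, with Itgal at 0.586 and 0.469, Itgam at 0.0885 and 0.140, Itgae at 0.205 and 0.192 and Itga4 at 0.0495 and 0.0252 RPKM in early gastruloids. The blood cell list, with 7 genes in the mouse file, summed to 1.11 and 1.60 RPKM there, and none of its genes reached 1 RPKM.

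Of the 37 adhesion genes tested, 7 were higher and 6 lower than in naïve ESCs (16.2% and 6.81% of all tested genes). Against EpiLCs, 5 were higher and 3 lower (11.7% and 9.24%). Nid1, at 7.03 and 7.45 RPKM in early gastruloids, lay between naïve ESCs and EpiLCs and was called against each. Parvb (β-parvin) was at 17.2 and 16.6 RPKM against 2.61 and 2.50 in EpiLCs, and Bcar1 at 16.1 and 16.2 RPKM against 57.2 and 60.8. Zyx was at 10.6 and 9.87 RPKM, Col4a1 at 2.42 and 2.39 and Tns1 at 0.495 and 0.593, against 0.673 and 0.666, 0.897 and 0.805, and 3.92 and 4.34 RPKM in naïve ESCs.

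Late mouse gastruloids differed from early ones in 21 of the 35 members, 14 higher and 7 lower, where 20.1% of all tested genes were called higher and 19.1% lower. The medians were 0.58 over the 33 members and −0.03 over all genes. The embryonic laminin chain Lama1 rose, while Lama5 and Lama3 fell. Lama1 went from 1.16 and 1.20 to 15.3 and 13.9 RPKM (3.63 ± 0.09, adjusted p = 6.6e-41), beside 12.3 and 12.5 in naïve ESCs. Lama5 fell from 41.3 and 36.9 to 12.3 and 11.9 RPKM (−1.69 ± 0.06, adjusted p = 8.9e-33). Lama3 fell from 4.74 and 5.02 to 0.130 and 0.152 RPKM (−5.11 ± 0.18, adjusted p = 1.7e-33). With these, Lama1 held 51.7% and Lama5 43.0% of laminin α chain RPKM in late gastruloids.

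Lama4, a chain of vessel and mesenchyme basement membranes, had 2 and 3 reads in the early libraries and was at 1.16 and 1.06 RPKM in the late ones. Lamb2 rose from 3.31 and 3.38 to 7.43 and 7.69 RPKM (1.18 ± 0.10). Lamb1, at 30.9 and 30.2 RPKM (0.58 ± 0.06), and Lamc1, at 37.1 and 35.8 RPKM (−0.31 ± 0.05), moved within the fold threshold.

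All 7 Itgb genes were called between early and late gastruloids, 4 higher and 3 lower, where 20.1% of all tested genes were called higher and 19.1% lower. Of the higher ones, Itgb3 and Itgb8 reached means of only 0.818 and 0.201 RPKM. Itgb1 rose from 51.1 and 55.5 to 117 and 113 RPKM (1.11 ± 0.05, adjusted p = 8.2e-27) and Itgb5 from 11.8 and 11.6 to 29.2 and 31.1 RPKM (1.36 ± 0.07, adjusted p = 2.1e-24). Itgb2 fell to 0.191 and 0.195 RPKM (−3.59 ± 0.40), Itgb7 to 0.253 and 0.538 (−3.21 ± 0.30) and Itgb4 from 2.83 and 2.63 to 0.449 and 0.531 (−2.50 ± 0.19).

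Among α chains, Itga9 rose from 1.67 and 1.59 to 23.9 and 24.2 RPKM (3.87 ± 0.09, adjusted p = 4.0e-43) and became the highest of its class. Itga8 rose from 0.174 and 0.191 to 6.07 and 5.62 RPKM (5.01 ± 0.19, adjusted p = 1.7e-31), and Itga5 from 4.53 and 4.19 to 17.7 and 17.7 RPKM (2.01 ± 0.09). Itga6 fell from 14.9 and 16.2 to 6.79 and 7.05 RPKM (−1.17 ± 0.07). Itga3, at 5.01 and 4.88 RPKM, was higher within the fold threshold (0.83 ± 0.11). Itga1 fell to 0.439 and 0.440 RPKM, and the remaining called members, Itga2b, Itga4, Itga11, Itgb3, Itgb8 and Lama2, rose to means of 0.818 RPKM or less.

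Markers of other cell types moved over the same interval. The endoderm list summed to 2.70 and 2.66 RPKM in early and 104 and 102 in late gastruloids, with 7 of its 8 genes at 1 RPKM or more, the endothelial list to 34.8 and 36.0 against 76.1 and 76.0 and the fibroblast list to 5.42 and 5.39 against 72.0 and 77.3. The part of these cells in the levels of Lama1, Lama4, Itga8 and Itga9 was not tested. Of the 37 adhesion genes tested 12 rose and 5 fell (20.1% and 19.1% of all tested genes). Vtn (vitronectin) had 0 reads in both early libraries and was at 5.29 and 5.58 RPKM in late gastruloids, at least 53.5-fold higher, and Tnc rose from 0.0254 and 0.0113 to 9.84 and 9.18 RPKM. Spp1 fell from 130 and 132 to 5.03 and 6.33 RPKM and Nid2 from 145 and 148 to 45.5 and 45.4 RPKM.

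**Figure D3:**
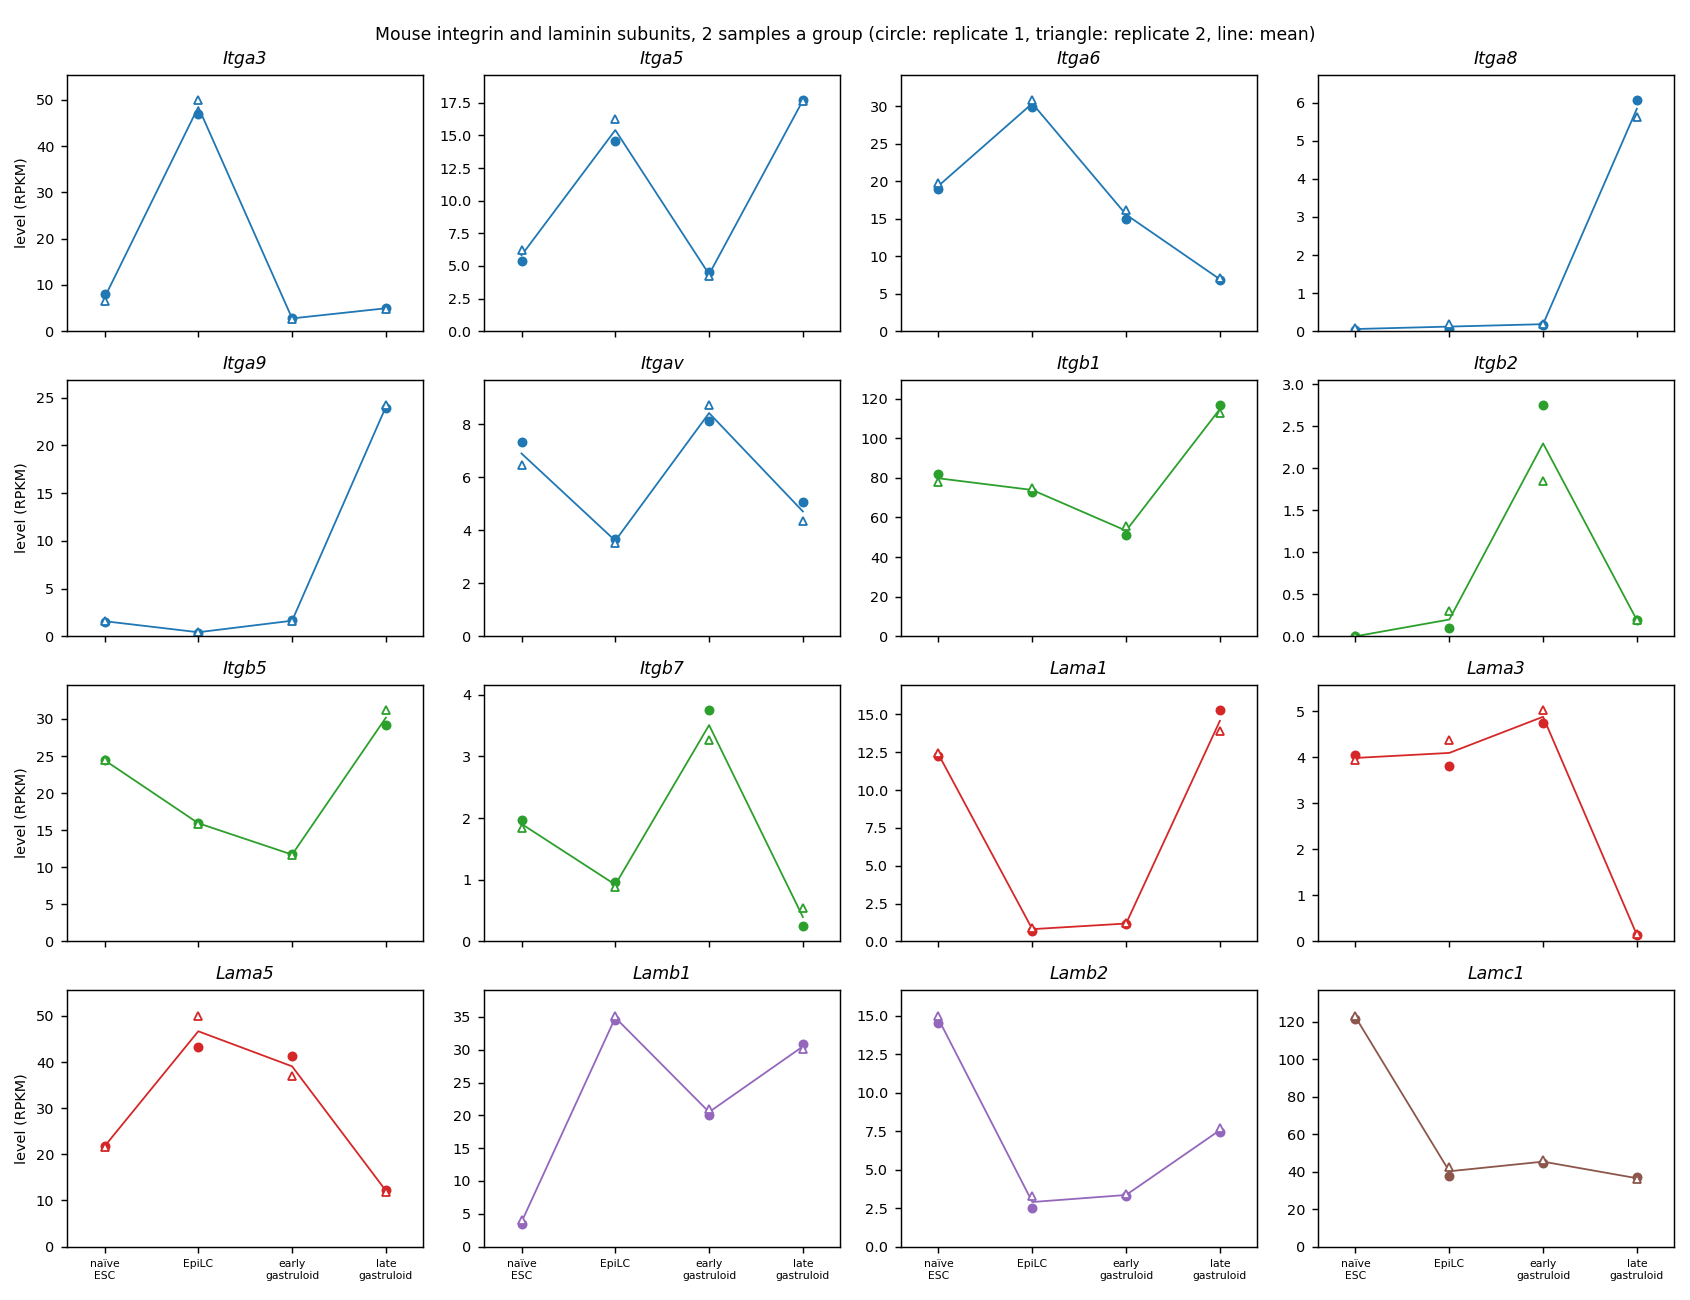
Levels (RPKM, linear axes from 0) of 16 mouse subunit genes are plotted for the 4 mouse groups, with circles and triangles for replicates 1 and 2 and a line through the means. Lama1 is at 12.3 and 12.5 RPKM in naïve ESCs, near 1 RPKM in EpiLCs and early gastruloids, and at 15.3 and 13.9 in late gastruloids, and Itga3 stands out in EpiLCs at 47.0 and 49.9 RPKM.

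Whether the step from early to late gastruloid was the same in both species was tested as a species by stage interaction over the 14007 genes matched by symbol. The mouse change minus the human change was beyond 1 on the log2 scale, at an adjusted p below 0.05, for 26 of the 34 members tested, against 35.4% of all matched genes. The mouse change lay above the human one in 19 and below it in 7. Species, line, duration, retinoic acid and Matrigel all differ between these samples and cannot be told apart.

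Of the 26, 4 were called lower in human and higher in mouse: ITGB5, ITGA5, LAMA2 and ITGA2B. ITGB5 changed by −2.33 in human and 1.36 in mouse, a difference of 3.55 ± 0.13 (adjusted p = 4.9e-23). ITGA5 changed by −1.55 and 2.01, a difference of 3.41 ± 0.15 (adjusted p = 2.0e-20). LAMA2, which forms the laminin of muscle, and ITGA2B differed by 4.60 ± 0.57 and 3.08 ± 0.52, at means of 0.434 RPKM or less in late gastruloids of either species.

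LAMA1 had the largest difference among members above 2 RPKM at some gastruloid stage of both species, with −0.52 in human and 3.63 in mouse and a difference of 4.00 ± 0.15 (adjusted p = 2.2e-22). In late stages its levels were 11.0 and 9.89 RPKM in human and 15.3 and 13.9 in mouse, and in early stages 15.2 and 14.9 in human against 1.16 and 1.20 in mouse. ITGA9 differed by 3.66 ± 0.16, called from early to late in mouse but not in human, ITGB1 by 1.35 ± 0.12 and ITGA6 by −1.34 ± 0.14.

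ITGA8 and LAMA4 were called higher in both species, with a larger change in mouse, and LAMA3, LAMA5 and ITGB2 lower in both. For LAMA5 the difference between species was −0.49 ± 0.17 and for LAMC1 0.22 ± 0.12 (adjusted p = 0.11), and LAMB2 differed by 0.49 ± 0.16. These 3 did not pass the fold threshold. The LAMA4 difference of 3.50 ± 0.92 was not called without early RA-gastruloid replicate 1 (2.13, adjusted p = 0.26), and the number of members called ranged from 23 to 28 when single samples were left out.

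**Figure D4:**
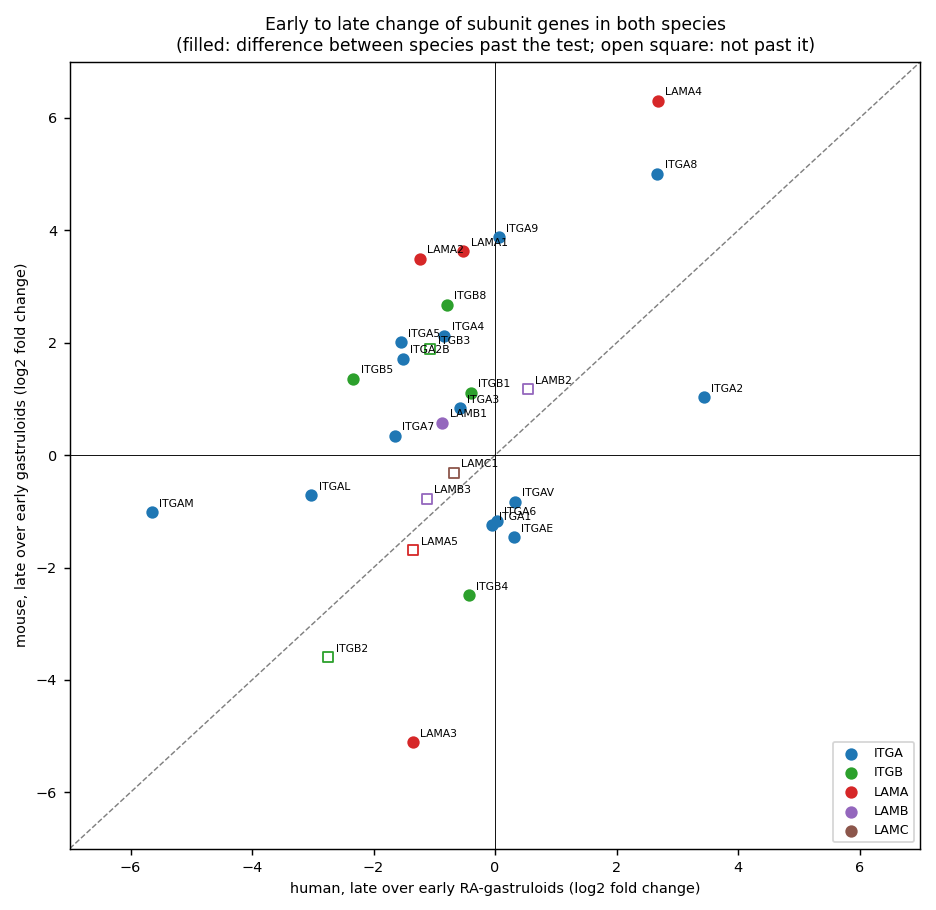
Each of 29 subunit genes tested in both species is placed by its log2 fold change from early to late in human (horizontal) and mouse (vertical), coloured by class, with the diagonal of equal change dashed. Filled circles mark the 23 drawn genes whose difference passed the test, and ITGB5 and ITGA5 lie in the upper left, lower in human and higher in mouse.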

How the data were processed

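Poly(A) RNA of 10 human and 8 mouse samples was sequenced. Per the study's methods and the submitters' processing notes, the authors used bcl2fastq (2.20), Trimmomatic (0.39), STAR and featureCounts with default settings on GRCh38 and GRCm39, and deposited raw counts per gene with the gene length. The releases of STAR and of the annotation are not given in the sources used here. Default counting ignores strand and drops reads that map to several genes, so overlapping genes and pseudogene copies (ITGB1P1, LAMB2P1) may lose or share reads. No count column was left unmapped (0).

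Symbols were taken from GENCODE (human release 44, mouse release M39) by Geneid. The human positions are the same in file and annotation, and those of mouse genes were taken from the file. In edgeR (4.0.16) genes were filtered by filterByExpr, scaled by TMM and fitted over all samples of a species (18300 human and 15003 mouse genes; biological coefficient of variation 8.18% and 4.30%), and over the 18 samples for the species difference. Calls needed a Benjamini-Hochberg adjusted p below 0.05 and a log2 fold change beyond 1. RPKM divides TMM-scaled CPM by the file's gene length in kilobases. A floor of 3 reads a library gave the bounds for genes absent from a group, which cover counting error only. Values were printed for the highest member of each class in any group and for up to 6 called rises and 6 called falls a comparison at 2 RPKM or more, and other members are given by ranges. A member that the counts include is not reported here. Members and lists were chosen with earlier results of these data known. On simulated counts, 200 of 200 changed genes were recovered in the human and in the mouse early to late comparison, with 2 and 3 false calls. Recovery for members with few reads, or with changes near the fold threshold, was not tested. Alternatives were DESeq2 (1.42.0), its size factors, no filter, only the compared groups, a replicate block, the adjusted p alone, leaving out each sample, and the longest transcript as gene length. Promoter windows are RefSeq's for GRCh38.p14. R 4.3.3 and Python 3.11.15 were used.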

Additional observations from a re-analysis of the deposited data

Results flagged for a closer look

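The results below stood out because the change from early to late gastruloids differed between the species by a test of the difference itself (mouse log2 fold change minus human, edgeR, adjusted p below 0.05 and a difference beyond 1). Groups of 2 samples were too small for a check of single outlying samples. Species, protocol and duration cannot be told apart in any of them.

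The mouse change was above the human one by 3.55 for ITGB5, 3.41 for ITGA5, 3.66 for ITGA9, 4.00 for LAMA1, 1.35 for ITGB1, 1.29 for LAMB1, 1.27 for ITGA3 and 2.19 for ITGA8, all of which exceeded 2 RPKM in at least 1 group of each species. Among chains that were lower than that in 1 or both species, it was above by 4.60 for LAMA2, 3.59 for LAMC3, 3.50 for LAMA4, 4.30 for ITGA11, 3.08 for ITGA2B, 2.82 for ITGA4, 3.33 for ITGB8, 1.84 for ITGA7, 2.17 for ITGAL and 4.48 for ITGAM.

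It was below the human change by −1.34 for ITGA6, −1.31 for ITGAV, −2.21 for ITGB4, −3.90 for LAMA3, −1.33 for ITGA1, −2.55 for ITGA2 and −1.91 for ITGAE on the log2 scale. The differences of ITGA7, ITGA11, ITGAE, ITGAL, ITGAM, ITGB4, LAMA4 and LAMC3 were each lost when 1 sample was left out, and most of these chains had few reads at the stages compared.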

How the results depend on the processing

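Of 173 recomputed counts of calls in both directions together, 162 stayed within 1.5 times the reported count, and the 11 that did not all came from dropping the fold threshold. With the adjusted p alone, 22 members were called between the primed lines, 25 between RA-gastruloid stages and 22 for EpiLCs against early gastruloids. In the adhesion list this gave 32, 32, 31 and 25 genes along the 4 human comparisons in order and, in mouse, 31 for naïve ESCs to EpiLCs, 23 for EpiLCs to early, 28 for naïve ESCs to early and 33 for early to late gastruloids. The share of all genes that pass the adjusted p alone is not given here. These counts therefore show how calls depend on the threshold and set no trait of the members or the list apart. Of 870 recomputed changes of single members, 856 kept their call, 13 kept their direction but lost it, and 1 reversed, the species difference of ITGAM, which was −0.30 without late mouse gastruloid replicate 2 and up to 5.62 without another sample. The lost calls comprised LAMA5 between the primed lines and Lama5 from naïve ESCs to EpiLCs, each at a log2 change of 1.00 with 1 sample left out, and species differences. Apart from that value, which came from leaving out a sample, no alternative turned the direction of a named member. Taken by direction, DESeq2 called 3 members lower from EpiLCs to early gastruloids, against 6. Subunit shares moved by more than the spread of the 2 replicates mostly with the longest transcript as the length.

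The replicate numbers do not pair the samples, since deviations of same-numbered samples correlated by −0.112 to 0.0684 in human and −0.0483 to 0.00806 in mouse. A replicate block gave 20, 13, 14 and 16 members along the human comparisons and 20, 12, 17 and 21 along the mouse ones, within 1.5 times the counts without it. With 2 samples a group an exact permutation test of a single gene cannot go below p = 0.333, and members with few reads rest on counts near the floor, above all in primed RUES2-GLR replicate 2.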

Other observations

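The levels of 3 chains across groups are added here. ITGAE, an α chain known from tissue-resident lymphocytes, was at 1.12 to 3.05 RPKM in all 10 human libraries and was not called in any human comparison, while mouse Itgae was at 0.352 RPKM or less. ITGB8, which with ITGAV activates latent TGF-β, was at 0.0138 and 0.0416 RPKM in naïve H9, 0.935 and 0.862 in primed RUES2-GLR and 1.48 and 1.49 in early RA-gastruloids, while mouse Itgb8 was at 0.253 RPKM or less. Lama3 was at 3.81 to 5.02 RPKM in the 6 mouse libraries before the late stage, against 0.325 RPKM or less for LAMA3 in human libraries.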
